A study of Mus musculus with 4 samples.

Results

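Tox, Tox2, Lag3, Tigit, Havcr2, Entpd1, Nt5e, Cd200 and Cd200r1 are 9 of the 31053 genes in the count tables, and they were followed in 7 classes of immune cell from skin and from skin tumors. They were taken by name as a set of transcription factors, inhibitory receptors, ectoenzymes and a ligand with its receptor that are mostly described in exhausted T cells. The classes were CD8 T cells, conventional CD4 T cells, Foxp3 regulatory T cells, gamma delta T cells, natural killer (NK) cells, Langerhans cells and dendritic cells. Each class was gated on marker genes that do not include the 9 genes. Of the 12848 cells that passed quality filters, 3164 fell in these 7 classes.

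The study compared immune cells of normal skin with those of a transplanted epidermal tumor in mice. Control skin came from C57BL/6 mice that were not injected, and tumors arose in the flank of young adult female and male C57BL/6 mice after injection of 2323 cells. The 2323 cells are 1 line, derived from a mouse tumor model driven by an inducible Cre under a keratin promoter, so both tumors carry the same line in hosts that are not themselves mutant. Live CD45+ cells, that is, all leukocytes, were sorted in both groups and sequenced with a 3' single-cell method that counts unique molecular identifiers (UMIs), and each group holds 2 libraries, called control 1 and 2 and tumor 1 and 2. The methods name 2 tumors and 2 control skins, without saying how many mice they came from, so p-values measure the spread between these libraries only.

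The libraries held 1994 to 4784 cells after filtering, with a median of 10610 to 13362 UMIs per cell, and any pair of libraries shared 1 to 5 cell barcodes. The classes were unequally filled. CD8 T cells numbered 124 and 45 in the control skins and 225 and 34 in the tumors, conventional CD4 T cells 54 and 30 against 91 and 71, and regulatory T cells 25 and 21 against 83 and 38. Gamma delta T cells numbered 526 and 622 against 10 and 17, and NK cells 34 and 19 against 100 and 50. Langerhans cells numbered 257 and 196 in the control skins, 0 in tumor 1 and 4 in tumor 2, which left no test for them. Dendritic cells numbered 71 and 95 against 262 and 60, and they were also followed as type 1 (Xcr1 or Clec9a), type 2 (Cd209a, Mgl2 or Clec10a) and mature (Ccr7) cells.

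Several gates held more than their names say, and these values stand beside the results below. The 10 gamma delta T cells of tumor 1 summed 2.54 UMIs per 10000 over the NK marker list, against 0.0949, 0.0354 and 0.0796 in control 1, control 2 and tumor 2, and their Trdc level was 6.88 against 22.7, 22.4 and 18.5. In the NK gate the summed level of Il7r, Rora, Itga1 and Cxcr6, genes of tissue innate lymphoid cells, was 13.7 and 12.4 in the control skins and 3.14 and 2.55 in the tumors. The 3 C1q genes, which mark macrophages, summed to 0.124 and 0.0377 UMIs per 10000 in control CD8 T cells and to 0.357 and 0.615 in tumor CD8 T cells. In conventional CD4 T cells they summed to 0.0388 and 0.221 against 0.439 and 0.517.

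Exhaustion is the state of T cells that meet antigen for a long time: they keep the transcription factor Tox, carry several inhibitory receptors together and make less cytokine. None of these genes belongs to that state alone. Tox is also needed in developing T cells and innate lymphoid cells, Havcr2 (TIM-3) is carried by myeloid cells, and the ectoenzymes Entpd1 (CD39) and Nt5e (CD73) work in sequence, on ATP and then on AMP, to make extracellular adenosine on many cell types.

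Tumor CD8 T cells had higher Tox, Lag3, Entpd1 and Cd200 and lower Nt5e than control CD8 T cells, and tumor CD4 T cells had higher Tox, Lag3, Havcr2, Entpd1 and Cd200. The other classes gave fewer calls. Dendritic cells had lower Havcr2 and Entpd1 in tumors and higher Cd200. Of the 9 genes, 6 were tested in regulatory T cells, 7 in gamma delta T cells and 4 in NK cells. None of them passed. Of all genes tested, 2.01% were called higher and 1.29% lower in regulatory T cells, and 2.03% and 2.16% in NK cells. In gamma delta T cells these shares were 0.0102% and 0%. With 10 and 17 tumor cells that test could detect few differences, so the lack of calls there does not set this class apart. Some of these genes were already high in control skin: Tox in group 2 innate lymphoid cells, regulatory T cells and gamma delta T cells, Havcr2 in Langerhans cells and Entpd1 in neutrophils.

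Levels are given as UMIs of a gene per 10000 UMIs of the class, from counts summed over the cells of 1 library. A change between groups was called at an adjusted p under 0.05 from edgeR's quasi-likelihood test on these sums, adjusted over all genes tested in that class. In bulk sums of a gate, a change in the mix of cells inside the gate and a change in RNA per cell cannot be told apart.

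**Figure D1:**
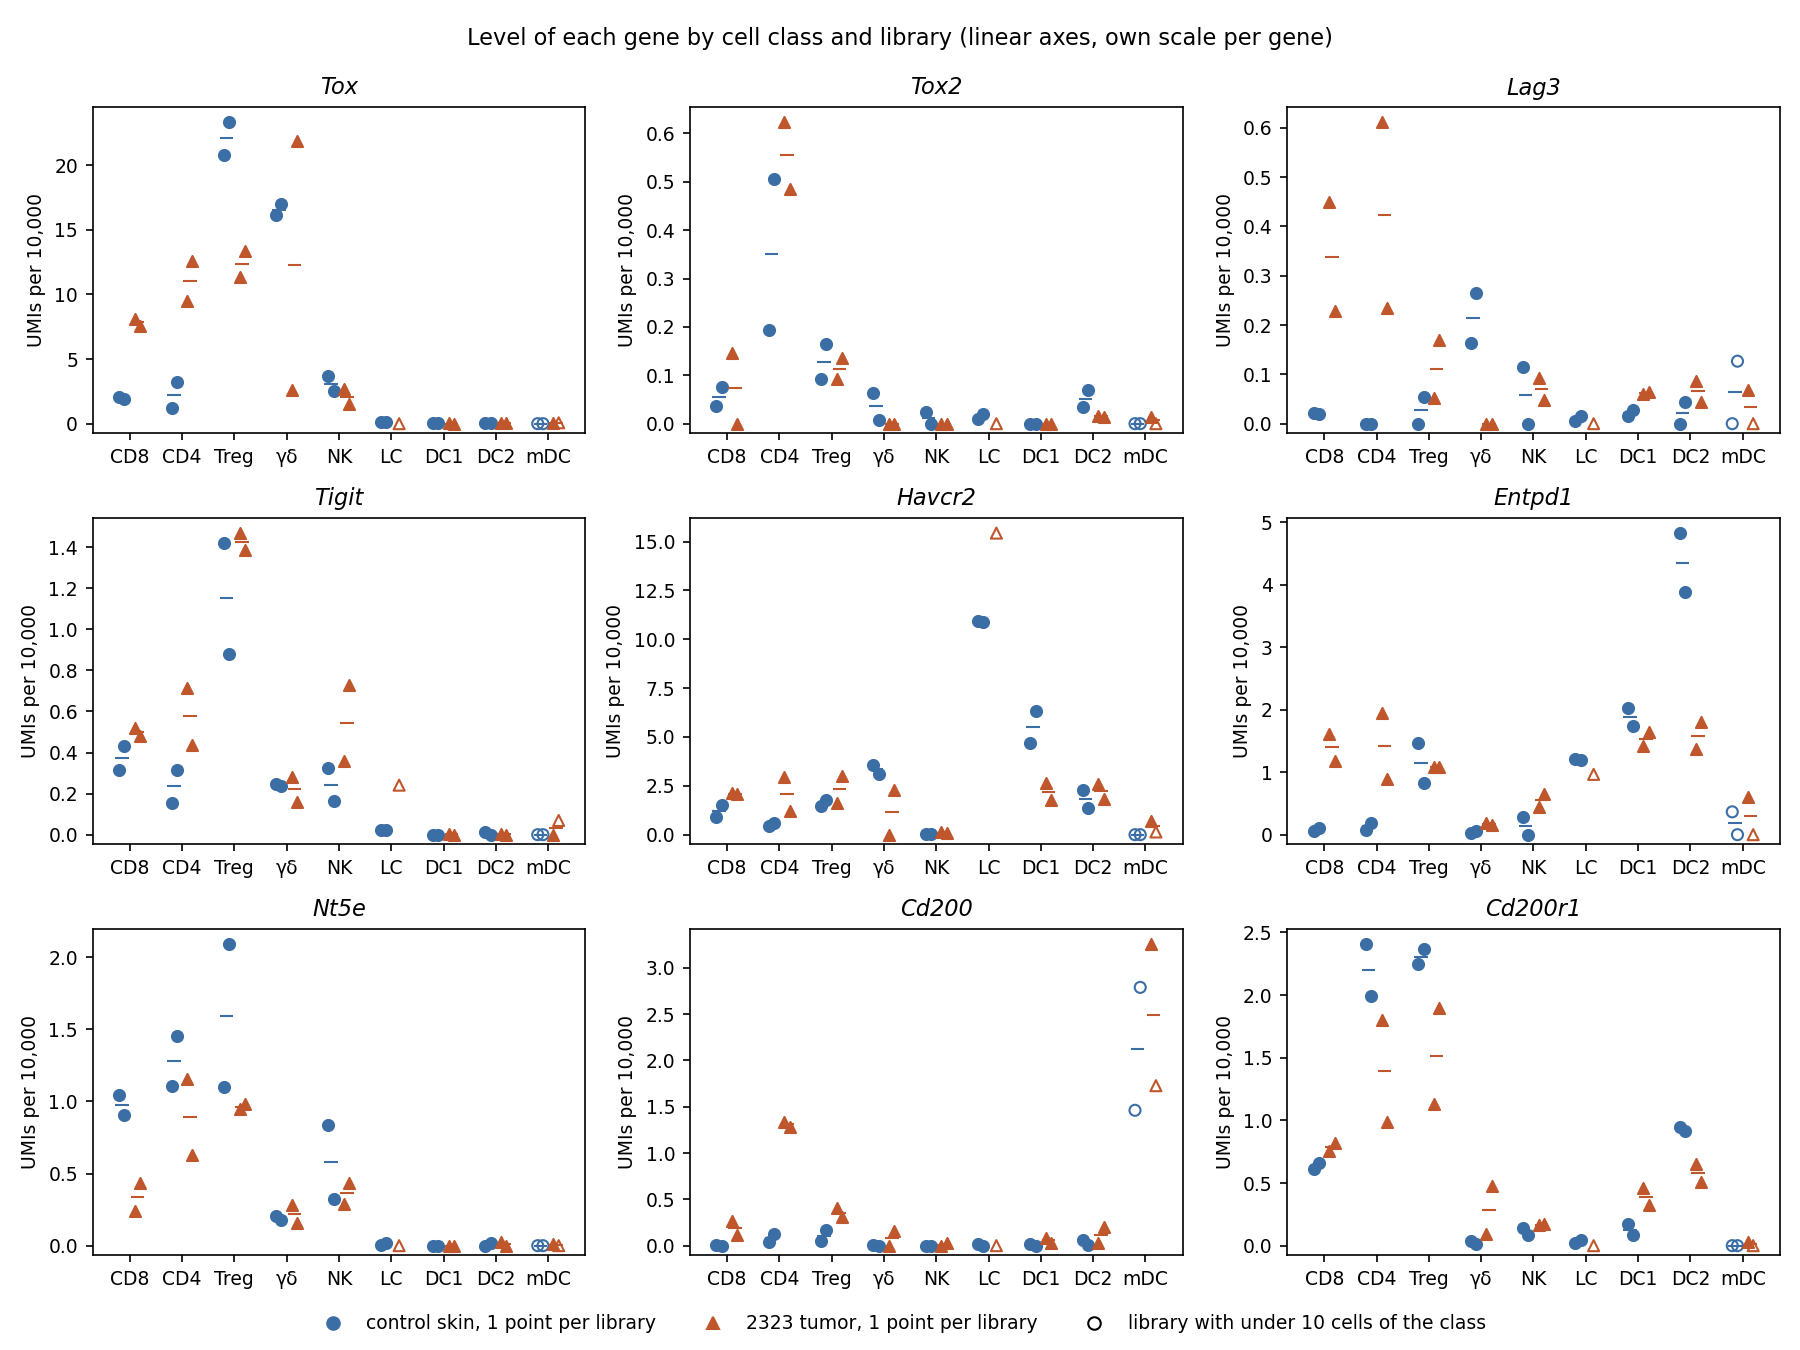
Level of each of the 9 genes, in UMIs per 10000 UMIs of the class, by cell class (LC, Langerhans cells; DC1, DC2 and mDC, type 1, type 2 and mature dendritic cells), with 1 point per library for control skins (circles) and tumors (triangles), a dash for each group mean and open points for libraries with under 10 cells of the class. Tox is high in control regulatory (20.8 and 23.3) and gamma delta T cells (16.1 and 17), Havcr2 is highest in Langerhans cells (10.9 and 10.9), and for Entpd1 in CD8 and CD4 T cells both tumors lie above both controls.

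Tox, an HMG-box transcription factor, was low in control CD8 T cells and higher in tumor CD8 T cells. Its level there was 2.04 and 1.90 UMIs per 10000 in the control skins and 8.11 and 7.56 in the tumors. The groups did not overlap, and the difference was far larger than the spread within a group (log2 fold change 1.85 ± 0.22 SE, n = 2 against 2, edgeR adjusted p = 0.001697). In conventional CD4 T cells Tox was 1.22 and 3.19 in the control skins and 9.52 and 12.6 in the tumors. Both tumors lay above both controls again (log2 fold change 2.33 ± 0.40 SE, edgeR adjusted p = 0.004444), although the control values differed more from each other than they did in CD8 T cells. After each cell was thinned to 2000 UMIs, Tox was found in 20.2% and 20% of control CD8 T cells and in 61.8% and 55.9% of tumor CD8 T cells. For CD4 T cells the shares were 11.1% and 30% against 50.6% and 66.2%. In neutrophils, which should lack the gene, the share was 0%, 1.85%, 3.26% and 1.35% in control 1, control 2, tumor 1 and tumor 2, at median depths of 2977 to 4387 UMIs per cell before thinning.

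Regulatory T cells had the opposite order. Their Tox level was 20.8 and 23.3 in the control skins and 11.3 and 13.3 in the tumors, so both controls lay above both tumors, but the difference did not pass the test (log2 fold change -0.84 ± 0.28 SE, edgeR adjusted p = 0.1393). Without tumor 2 it did (-0.94, edgeR adjusted p = 0.003604). The levels of Foxp3, which defined the gate, were 5.82 and 5.06 against 3.30 and 3.28, and those of Il2ra 18.5 and 12.9 against 4.73 and 5.68, so regulatory marker genes moved with Tox, and their part in its level was not tested.

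Gamma delta T cells of control skin were also rich in Tox. The level was 16.1 and 17 in the control skins, where dendritic epidermal T cells, the resident gamma delta cells of mouse epidermis, made up 401 and 499 of the cells and had 16.7 and 18.0. The cells of IL-17 type, which live in the dermis, had 14.6 and 12.5, so both kinds were high. In the tumors Tox was 2.64 in tumor 1 (28 UMIs, exact Poisson 95% interval 1.75 to 3.81) and 21.9 in tumor 2 (275 UMIs, 19.4 to 24.6), one below and the other above both controls. The fitted difference of -0.78 on the log2 scale had an edgeR adjusted p of 0.7371, and without tumor 1, whose gated cells carried NK genes, it turned to 0.16. Without tumor 2 it was -3.12, which passed the test. With 10 and 17 tumor cells, the test within this class could detect few differences.

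NK cells had 3.69 and 2.49 UMIs of Tox per 10000 in the control skins and 2.69 and 1.5 in the tumors, and the groups overlapped (log2 fold change -0.56, edgeR adjusted p = 0.4062). Without tumor 1 the difference was -1.11 with an edgeR adjusted p of 0.04338, and the innate lymphoid genes of this gate were lower in the tumors too. The median depth of NK cells was 12133 and 13917 UMIs per cell in the control skins and 7518.5 and 7446.5 in the tumors. Langerhans cells had 0.099 and 0.158, and type 1 dendritic cells 0.048 and 0.014 against 0.023 and 0, from 3, 1, 5 and 0 UMIs. Tox was thus near 0 in the cells kept in both gates, and too low to be tested in dendritic cells. Cells with lymphoid genes had been left out of these gates, a choice made after seeing where the Tox UMIs lay, as given below. From the Langerhans gate this took out 16 and 9 control cells with 51 and 14 Tox UMIs, beside 44 and 53 in the cells kept.

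Over all classes with at least 10 cells in each control skin, Tox was highest in group 2 innate lymphoid cells, a comparison class gated on Gata3, Il7r, Il5, Il13 and Il1rl1, at 23.2 ± 4.1 UMIs per 10000 (SD, n = 2). Regulatory T cells followed at 22.1 ± 1.8 and overlapped them, then gamma delta T cells at 16.5 ± 0.62, and only after a wide gap NK cells at 3.09 and CD4 T cells at 2.21. Among classes with at least 10 cells in each tumor, regulatory, gamma delta and CD4 T cells took the first 3 places with overlapping values. Group 2 innate lymphoid cells, with 7 and 3 cells in the tumors, fell below that limit. Tox2, the relative of Tox that is known from follicular helper T cells, was far scarcer. It was highest in group 2 innate lymphoid cells of control skin, at 0.972 and 0.919, next in CD4 T cells, at 0.194 and 0.506 against 0.623 and 0.485 in the tumors, and the CD4 groups overlapped (log2 fold change 0.71, edgeR adjusted p = 0.3278). In CD8 T cells it had 5 and 4 UMIs in the control skins and 53 and 0 in the tumors and was not tested, so of the tumors only tumor 1 held it.

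Part of the apparent Tox in dendritic cells of control skin lay in a few cells. Of 81 control cells that met the type 1 gate on its own genes, 20 were set aside for UMIs of Gata3, Il5, Il13 or of the T cell receptor genes Trac and Trdc. These 20 cells held 494 of the 498 Tox UMIs (99.2%) and all 47 Nt5e UMIs. The cells kept were not wholly free of the listed genes, since 4 of them in control 1 held 4 Trdc UMIs. Their Tox level was 19.7 and 11.3 UMIs per 10000 in the 8 cells of control 1 and the 12 cells of control 2, while the Xcr1 level was 1.27 and 1.88 there and 2.38 and 2.34 in the cells that were kept. Tox was found in 17 and Gata3 in 18 of these 20 cells. In the tumors 2 and 2 such cells were present, with no Tox UMI. They were left out of the dendritic gates, a choice made after these values were seen, and with them kept, Tox, Nt5e and Tox2 were called in dendritic cells beside Entpd1 and Cd200, while Havcr2 was no longer called (edgeR adjusted p = 0.05172).

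**Figure D2:**
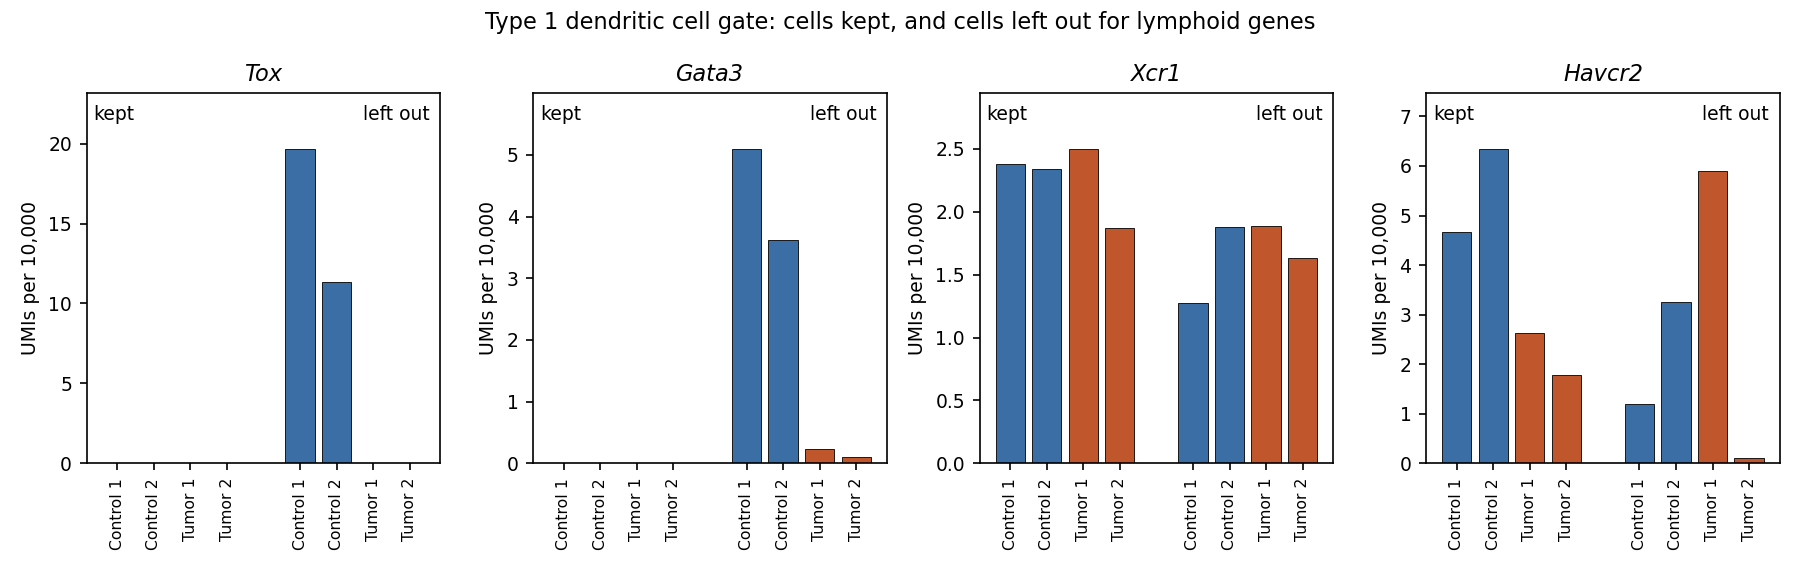
Bars give the level of Tox, Gata3, Xcr1 and Havcr2 (UMIs per 10000) summed over the cells of 1 library that met the type 1 dendritic gate, on the left of each panel for the cells kept and on the right for the cells left out for Gata3, Il5, Il13, Trac or Trdc UMIs (8, 12, 2 and 2 cells). In the cells left out Tox reaches 19.7 and 11.3 in the control skins, in the cells kept it lies at or below 0.048 in every library, and Gata3 is 0 in the cells kept by construction. Trdc is not, with 4 UMIs in 4 of the cells kept in control 1.

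Lag3, an inhibitory receptor that binds MHC class II, was almost absent from control CD8 and CD4 T cells. In CD8 T cells 3 and 1 UMIs were counted in the control skins and 162 and 10 in the tumors, which gave 0.022 and 0.019 UMIs per 10000 against 0.449 and 0.228. The 95% intervals of the tumors, 0.382 to 0.523 and 0.109 to 0.419, lay above those of control 1, 0.0045 to 0.064, and of control 2, up to 0.105, for counting error alone. The difference passed the test (log2 fold change 3.95 ± 0.61 SE, edgeR adjusted p = 0.004708), but without control 1 the adjusted p was 0.08943, and without tumor 1 Lag3 was too low to be tested. In conventional CD4 T cells Lag3 was at 0 in both control skins and at 0.612 and 0.235 in the tumors, from 53 and 15 UMIs. The tumors were at least 12.5-fold higher than the level of 3 UMIs over both controls (edgeR adjusted p = 0.007355), and without tumor 1 the adjusted p was 0.1514.

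In control skin the highest Lag3 level was in gamma delta T cells, at 0.164 and 0.264 UMIs per 10000 from 97 and 187 UMIs. The gamma delta T cells of both tumors had 0 UMIs of Lag3 among 231825, so the controls were at least 1.69-fold higher than the level of 3 UMIs over both tumors, and the difference did not pass the test (edgeR adjusted p = 0.4388). NK cells had 0.116 and 0 against 0.092 and 0.049, and regulatory T cells 0 and 0.055 against 0.052 and 0.169, and neither class reached the filter on low counts. The groups overlapped in both. Dendritic cells held 1 and 8 Lag3 UMIs in the control skins and 39 and 5 in the tumors, or 0.0066 and 0.041 against 0.073 and 0.044 per 10000, and control Langerhans cells 2 and 5 UMIs, all too low to be tested.

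Tigit, which binds Pvr and nectins and counters the activating receptor Cd226, was a gene of regulatory T cells in both groups. Its level there was 1.42 and 0.880 in the control skins and 1.47 and 1.39 in the tumors (log2 fold change 0.31), so the values overlapped. CD8 T cells had 0.313 and 0.434 against 0.521 and 0.478, and although both tumors lay above both controls the difference did not pass (log2 fold change 0.35, edgeR adjusted p = 0.4908). CD4 T cells had 0.155 and 0.316 against 0.716 and 0.438, again without overlap and without passing (1.32 ± 0.44 SE, edgeR adjusted p = 0.08661). The edgeR fit with no filter on low counts did call Tigit in CD4 T cells. NK cells had 0.324 and 0.163 against 0.358 and 0.728 (0.95, edgeR adjusted p = 0.3707), and gamma delta T cells 0.247 and 0.236 against 0.283 and 0.159. Among control classes regulatory T cells, at 1.15, stood clear of the next, CD8 T cells at 0.374, whose values overlapped those of NK cells. Langerhans cells had 0.0224 and 0.0209, and dendritic cells held 1, 0, 2 and 1 Tigit UMIs.

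Havcr2, or TIM-3, a receptor for galectin-9, HMGB1 and phosphatidylserine, was most of all a gene of Langerhans cells. Langerhans cells had 10.9 and 10.9 UMIs of Havcr2 per 10000 in the control skins, from 4883 and 3648 UMIs, and it was found in 79.0% and 81.6% of these cells after thinning to 2000 UMIs, against 0% and 11.1% of control neutrophils. The 4 Langerhans cells of tumor 2 held 64 UMIs, or 15.4 per 10000, with no test. Type 1 dendritic cells came next at 5.51 ± 1.2 (SD, n = 2) and gamma delta T cells at 3.35 ± 0.31, and each of these first 3 places was clear of the next. The 250 bases before the RefSeq start of Havcr2, at chr11:46454681-46454930 on the plus strand of GRCm38.p6, are shown because Havcr2 rose in CD4 T cells and fell in type 1 dendritic cells. Capitals mark the single match to the AP-1 motif TGANTCA, which was searched on both strands and is present in 6.75% of 32851 mouse promoter windows of RefSeq.
Havcr2: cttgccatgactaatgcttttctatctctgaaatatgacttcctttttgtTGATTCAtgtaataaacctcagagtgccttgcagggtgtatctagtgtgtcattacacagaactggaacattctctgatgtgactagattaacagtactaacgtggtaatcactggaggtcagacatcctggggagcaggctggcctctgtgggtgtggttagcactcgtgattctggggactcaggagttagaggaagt
The NFAT core letters GGAAA, found in 55.6% of these windows on either strand and unable to overlap TGANTCA, have no match in this one. Of the 9 genes, 6 matched a promoter in the RefSeq table.

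In tumors Havcr2 rose in CD4 T cells and fell in type 1 dendritic cells. CD4 T cells had 0.427 and 0.601 UMIs per 10000 in the control skins and 2.96 and 1.19 in the tumors, all tumors above all controls (log2 fold change 1.99 ± 0.42 SE, edgeR adjusted p = 0.01359). CD8 T cells had 0.904 and 1.51 against 2.13 and 2.07, also without overlap, but the difference did not pass (0.71 ± 0.26 SE, edgeR adjusted p = 0.1084). In type 1 dendritic cells the level was 4.67 and 6.35 in the control skins and 2.62 and 1.77 in the tumors, from 294, 464, 575 and 55 UMIs. Both tumors lay below both controls (log2 fold change -1.51 ± 0.29 SE, edgeR adjusted p = 0.01854), with an adjusted p of 0.1032 without tumor 1. The share of type 1 cells with a Havcr2 UMI, thinned to 2000, was 69.0% and 68.8% against 33.3% and 25%.

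Type 2 dendritic cells did not share that fall. Their Havcr2 level was 2.27 and 1.39 in the control skins and 2.60 and 1.83 in the tumors, with overlap (log2 fold change 0.09, edgeR adjusted p = 0.8828), and its sign turned in 3 of the alternatives. Over all dendritic cells together Havcr2 was 3.22 and 3.17 against 2.35 and 1.60 (log2 fold change -0.93 ± 0.22 SE, edgeR adjusted p = 0.04009), and the call held in 8 of 13 alternatives. It was lost without control 1 (adjusted p = 0.1277), without control 2 (0.1925), under a cap on UMIs per cell (0.05645), under a strict gate (0.06906) and with the lymphoid gene cells kept (0.05172). Mature dendritic cells had 0 UMIs of Havcr2 in both control skins, from 3 and 5 cells, and 0.717 and 0.138 in the tumors, where they made up 17.6% and 15% of dendritic cells against 4.23% and 5.26% in the control skins. The part of that mix in the pooled value was not tested. Regulatory T cells had 1.47 and 1.76 against 1.64 and 3.01 (log2 fold change 0.50, edgeR adjusted p = 0.5764), gamma delta T cells 3.57 and 3.13 against 0 and 2.31 (-1.85, edgeR adjusted p = 0.515), and NK cells stayed at or below 0.115 in every library.

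Entpd1, or CD39, the enzyme that removes phosphates from extracellular ATP and ADP, rose in both CD8 and CD4 T cells of the tumors. In CD8 T cells it was at 0.058 and 0.113 UMIs per 10000 in the control skins, from 8 and 6 UMIs, and at 1.61 and 1.18 in the tumors, from 581 and 52 UMIs. The groups were far apart (log2 fold change 4.08 ± 0.37 SE, edgeR adjusted p = 0.0006902). After thinning, 0% and 0% of control CD8 T cells and 22.2% and 20.6% of tumor CD8 T cells had an Entpd1 UMI, or 1.61% and 2.22% against 60.9% and 61.8% without thinning. In mast cells, which served as a background, the thinned share was 0% and 4.76% against 7.69% and 7.14%, and the share without thinning 0% and 3.57% against 25% and 26.7%. This background was thus higher in the tumors too, at 0.603 and 0.819 UMIs of Entpd1 per 10000 from 8 and 5 UMIs against 0 and 0.109 from 0 and 1, at median depths of 2106 to 4260 UMIs per cell. The 250 bases before the RefSeq start of Entpd1, at chr19:40612116-40612365 on the plus strand of GRCm38.p6, are printed because Entpd1 was called in CD8 T cells, CD4 T cells and dendritic cells, and they hold neither TGANTCA nor GGAAA on either strand.
Entpd1: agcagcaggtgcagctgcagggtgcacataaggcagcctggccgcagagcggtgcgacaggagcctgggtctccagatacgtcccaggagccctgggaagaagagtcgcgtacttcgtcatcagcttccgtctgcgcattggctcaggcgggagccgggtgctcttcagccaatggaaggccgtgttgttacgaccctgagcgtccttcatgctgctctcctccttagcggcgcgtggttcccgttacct

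In conventional CD4 T cells Entpd1 was at 0.078 and 0.190 in the control skins and at 1.94 and 0.892 in the tumors (log2 fold change 3.45 ± 0.52 SE, edgeR adjusted p = 0.002307). Both tumors were above both controls, as in CD8 T cells. Regulatory T cells, in contrast, had 1.47 and 0.825 in the control skins and 1.09 and 1.08 in the tumors, with overlap (log2 fold change -0.09, edgeR adjusted p = 0.9577). NK cells had 0.278 and 0 against 0.439 and 0.655, without overlap but without passing (1.60 ± 0.66 SE, edgeR adjusted p = 0.2322). Tumor mast cells, used above as a background, had 0.603 and 0.819, which overlaps the NK values of the tumors. Gamma delta T cells held 2 UMIs in each tumor and stayed at or below 0.188.

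Dendritic cells lost Entpd1 where CD8 and CD4 T cells gained it. The level in type 2 dendritic cells was 4.83 and 3.88 in the control skins and 1.36 and 1.80 in the tumors, from 419, 451, 327 and 123 UMIs. All tumors lay below all controls (log2 fold change -1.67 ± 0.24 SE, edgeR adjusted p = 0.01506), and leaving out control 1 or control 2 gave adjusted p of 0.06806 and 0.06965. The share of type 2 cells with a UMI, thinned, was 41.0% and 36.2% against 18.9% and 17.9%. In type 1 dendritic cells the values were 2.03 and 1.74 against 1.42 and 1.65, lower in both tumors but not past the test (-0.52, edgeR adjusted p = 0.3069). Over all dendritic cells Entpd1 was 3.59 and 2.93 against 1.28 and 1.53 (-1.46 ± 0.21 SE, edgeR adjusted p = 0.009523). Summed C1q in type 2 dendritic cells was 0.115 and 0.121 against 0.350 and 0.409, and macrophages, at 3.72 and 3.54 against 4.24 and 4.61, carried more Entpd1 than tumor dendritic cells did.

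Across control classes Entpd1 was highest in neutrophils, at 26.2 ± 4.6 (SD, n = 2), and the tumors' neutrophils had 25.1 and 22.6. Type 2 dendritic cells (4.35 ± 0.67) and macrophages (3.63) came next, and Langerhans cells had 1.21 and 1.20. CD8, CD4 and regulatory T cells of the tumors, at 0.892 to 1.94, were near the level of control Langerhans cells. Tumor gamma delta T cells, at 0.188 and 0.159, lay below it.

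Nt5e, or CD73, turns AMP into adenosine, and it did not move with Entpd1 in CD8 T cells. Its level there fell from 1.04 and 0.905 in the control skins to 0.238 and 0.433 in the tumors, without overlap (log2 fold change -1.88 ± 0.32 SE, edgeR adjusted p = 0.007613), and the adjusted p was 0.0929 without control 1 and 0.07646 without tumor 1. The thinned share was 16.1% and 22.2% against 4.44% and 2.94%. In CD4 T cells the values were 1.11 and 1.45 against 1.15 and 0.626 and overlapped (-0.55, edgeR adjusted p = 0.3127). In regulatory T cells they were 1.10 and 2.09 against 0.944 and 0.980, both tumors below both controls but short of the threshold (-0.71, edgeR adjusted p = 0.3908). NK cells had 0.834 and 0.327 against 0.289 and 0.437 and overlapped. Control gamma delta T cells of IL-17 type had 0.529 and 0.360 and dendritic epidermal T cells 0.096 and 0.106. Type 1 dendritic cells had 0 UMIs in all 4 libraries, after the cells with lymphoid genes, which held all 47 control UMIs of that gate, were left out. Gamma delta T cells as a whole had 0.207 and 0.181 against 0.283 and 0.159, and control neutrophils, at 0.442 and 0.477, lay above them. Over all control classes Nt5e was highest in group 2 innate lymphoid cells (1.69 and 2.42), whose values overlapped those of regulatory T cells at 1.60, which in turn overlapped CD4 T cells at 1.28.

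Cd200 is a membrane ligand, and Cd200r1 is its inhibitory receptor, best known from myeloid cells. Cd200 rose in tumor T cells. In CD4 T cells it was at 0.039 and 0.126 UMIs per 10000 in the control skins, from 2 and 4 UMIs, and at 1.34 and 1.28 in the tumors, from 116 and 82 (log2 fold change 4.05 ± 0.45 SE, edgeR adjusted p = 0.0005151). The thinned share was 0% and 0% against 15.4% and 22.5%. In CD8 T cells it had 1 and 0 UMIs in the control skins and 97 and 5 in the tumors, or 0.0073 and 0 against 0.269 and 0.114 per 10000. That difference passed (5.05 ± 0.90 SE, edgeR adjusted p = 0.008562), its size rests on 1 control UMI, without control 1 the adjusted p was 0.1638, and without tumor 1 Cd200 was too low to be tested. The 250 bases before the RefSeq start of Cd200, at chr16:45409054-45409303 on the minus strand of GRCm38.p6, are shown beside those of Entpd1 because both genes rose in both kinds of T cell, and they too hold neither motif.
Cd200: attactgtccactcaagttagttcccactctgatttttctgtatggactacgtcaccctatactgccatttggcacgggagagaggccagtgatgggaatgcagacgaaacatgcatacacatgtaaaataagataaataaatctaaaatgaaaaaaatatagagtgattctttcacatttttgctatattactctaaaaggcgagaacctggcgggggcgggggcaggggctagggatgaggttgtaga

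In dendritic cells Cd200 was at 0.066 and 0.117 in the control skins and 0.491 and 0.351 in the tumors, without overlap (log2 fold change 1.96 ± 0.35 SE, edgeR adjusted p = 0.01811), and without control 1 the adjusted p was 0.06524. Mature dendritic cells had the highest level, at 1.46 and 2.79 in the control skins, from 4 and 22 UMIs, and 3.26 and 1.73 in the tumors, from 236 and 25 UMIs, with overlap between groups. Type 2 cells had 0.058 and 0.009 against 0.029 and 0.204. The share of mature cells in the dendritic gate was larger in the tumors, as given above, so that mix and a change within a dendritic type cannot be told apart in the pooled value. Regulatory T cells had 0.046 and 0.165 against 0.407 and 0.304, higher in both tumors, with counts too low to be tested. Gamma delta T cells held 3, 0, 0 and 2 UMIs of Cd200, NK cells 0, 0, 0 and 1 and control Langerhans cells 6 and 0.

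With the filter on low counts and all 4 libraries, Cd200r1 did not pass edgeR's test in any class. Control regulatory and CD4 T cells held the most, 2.25 and 2.37 and 2.41 and 1.99 UMIs per 10000, and their values overlapped each other. In the tumors regulatory T cells had 1.13 and 1.89 (log2 fold change -0.65, edgeR adjusted p = 0.3908) and CD4 T cells 1.80 and 0.986 (-0.73, edgeR adjusted p = 0.1809), each below both controls. CD8 T cells had 0.612 and 0.660 against 0.753 and 0.820 (0.16, edgeR adjusted p = 0.7247). Type 1 dendritic cells had 0.175 and 0.082 against 0.456 and 0.323 (1.47 ± 0.49 SE, edgeR adjusted p = 0.1117) and type 2 cells 0.944 and 0.912 against 0.650 and 0.511 (-0.86 ± 0.22 SE, edgeR adjusted p = 0.06848), so the 2 types differed in direction without either passing. The edgeR fit with no filter on low counts called Cd200r1 in type 2 cells. In gamma delta T cells it was at 0.034 and 0.011 against 0.094 and 0.477, from 20, 8, 1 and 6 UMIs, higher in both tumors (3.38, unadjusted p = 0.02363, edgeR adjusted p = 0.4008), and DESeq2 and the edgeR fit with no filter on low counts called it there. NK cells had 0.139 and 0.082 against 0.162 and 0.170, and control Langerhans cells 0.025 and 0.042. Mast cells, a known carrier of the CD200 receptor family, had 0.952 and 0.978 against 0.980 and 1.97. Cd200r1 shares sequence with other genes of its family, and reads may be split between them.

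**Figure D3:**
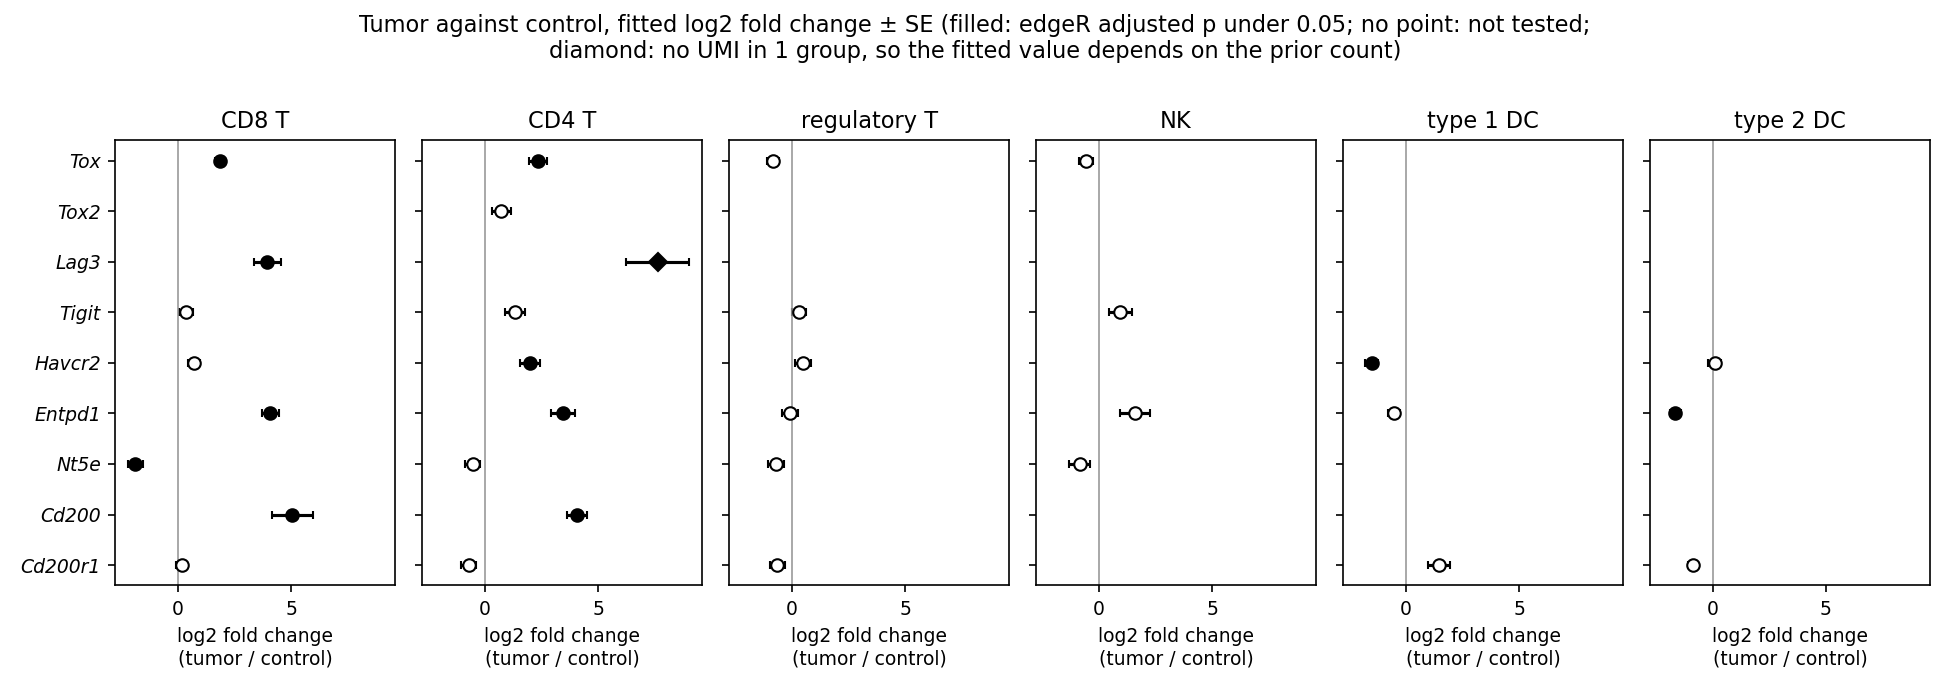
Log2 fold change, tumor against control skin, for each of the 9 genes tested in CD8, CD4, regulatory T, NK, type 1 and type 2 dendritic cells. Error bars give an SE derived from the F statistic of edgeR's quasi-likelihood test. Filled points passed an adjusted p of 0.05, and the diamond marks Lag3 in CD4 T cells, which had no control UMI. Entpd1 lies at 4.08 in CD8 and 3.45 in CD4 T cells and at -1.67 in type 2 dendritic cells, and Cd200 at 5.05 in CD8 and 4.05 in CD4 T cells.

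Counted by class, CD8 T cells had 8 of the 9 genes past the filter on low counts, of which 4 were higher and 1 lower in tumors, where 5.1% of all genes tested were higher and 6.7% lower. CD4 T cells had all 9 past the filter, 5 higher and 0 lower, against 5.73% and 4.5% of all genes. Dendritic cells had 4, of which 1 was higher and 2 lower, against 3.56% and 5.01%. Of 3 genes tested, type 1 dendritic cells had 0 higher and 1 lower (background 1.92% and 3.19%), and type 2 cells 0 higher and 1 lower (3.25% and 3.48%). Some genes passed the filter only through the group in which they were high, so the counts are descriptions.

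Regulatory T cells had 6 genes tested and 0 called by edgeR, where 2.01% of all genes were higher and 1.29% lower, with 1 at an unadjusted p under 0.05 and 0 called by DESeq2. Gamma delta T cells had 7 tested and 0 called, against a background of 0.0102% and 0%, with 1 at an unadjusted p under 0.05, Cd200r1, which DESeq2 called. Over all genes of this class DESeq2 called 599 of 9794. This class held the fewest tumor cells of those tested. NK cells had 4 tested and 0 called, against 2.03% and 2.16%, with 1 at an unadjusted p under 0.05 and 0 called by DESeq2. The median log2 fold change of the genes tested was 1.28 in CD8 T cells and 1.99 in CD4 T cells, beside 0.07 and 0.03 over all genes tested, and -0.37 in regulatory T cells and 0.20 in NK cells, beside -0.00 and 0.02. It was -0.54 in gamma delta T cells beside -0.27 over all genes, and -0.78, -0.52 and -0.86 in all, type 1 and type 2 dendritic cells beside 0.03, 0.01 and 0.03. Like the counts, these medians include genes that passed the filter only through the group in which they were high, so they are descriptions.

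Whether the effect of the tumor differed between classes was tested directly, as an interaction against CD8 T cells in 1 fit with the library as a term. Entpd1 differed in 3 classes. Its tumor effect was lower than in CD8 T cells by 4.16 ± 0.76 SE (log2) in regulatory T cells (edgeR adjusted p = 0.00773), by 4.64 ± 0.69 in type 1 dendritic cells (edgeR adjusted p = 0.0004154) and by 5.80 ± 0.67 in type 2 dendritic cells (edgeR adjusted p = 1.446e-05). In these comparisons 0.65%, 1.84% and 2.8% of all genes were called. Lag3 differed in gamma delta T cells (edgeR adjusted p = 0.008562, where 2.35% of all genes were called), with both tumors at 0 there.

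Tox did not pass in any of the comparisons with CD8 T cells. Its effect differed from that in CD8 T cells by -2.67 in regulatory T cells (edgeR adjusted p = 0.1028), by -2.68 in gamma delta T cells (edgeR adjusted p = 0.05068) and by -2.38 in NK cells (edgeR adjusted p = 0.1926). Between CD4 and CD8 T cells 0 of the 9 genes differed, where 0.279% of all genes did, and the estimate was 0.46 for Tox and 1.32 for Nt5e (edgeR adjusted p = 0.9716 and 0.5561). In NK cells 0 of the 9 differed, against 0.372% of all genes. Havcr2 in type 1 dendritic cells differed by -2.23 from CD8 T cells without passing (edgeR adjusted p = 0.09457), and by -3.49 from CD4 T cells (edgeR adjusted p = 0.01056). Against CD4 T cells, Cd200r1 also differed in type 1 dendritic cells (2.21, edgeR adjusted p = 0.04765), where 2.33% of all genes did. In gamma delta T cells Tox (-3.14, edgeR adjusted p = 0.02291), Havcr2 (-3.71, edgeR adjusted p = 0.01649), Cd200r1 (4.16, edgeR adjusted p = 0.02002) and Lag3 differed from CD4 T cells, where 2.3% of all genes did. Those calls rest on 10 and 17 tumor gamma delta T cells, and the cells of tumor 1 carried NK genes. Tox there was 2.64 in tumor 1 and 21.9 in tumor 2, below and above both controls, and Havcr2 was 0 and 2.31. These contrasts share the libraries of their reference class.

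Single cells were also scored for how many of Tox, Lag3, Tigit, Havcr2 and Entpd1 they held, after thinning to 2000 UMIs. At least 3 of the 5 were found in 0% and 0% of control CD8 T cells and in 12.9% and 11.8% of tumor CD8 T cells. For CD4 T cells the shares were 0% and 0% against 12.1% and 4.23%. Regulatory T cells already carried several in control skin, 12% and 9.52% of cells, against 12.2% and 18.4% in the tumors, and the higher control and the lower tumor were nearly equal. NK cells had 0% and 0% against 1.03% and 2.08%. None of the 5 was found in 64.5% and 55.6% of control CD8 T cells and in 20% and 26.5% of tumor CD8 T cells. Without thinning, the shares with at least 3 were 5.65% and 20% against 65.3% and 44.1% in CD8 T cells, so the level depends on depth while the groups did not overlap either way.

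**Figure D4:**
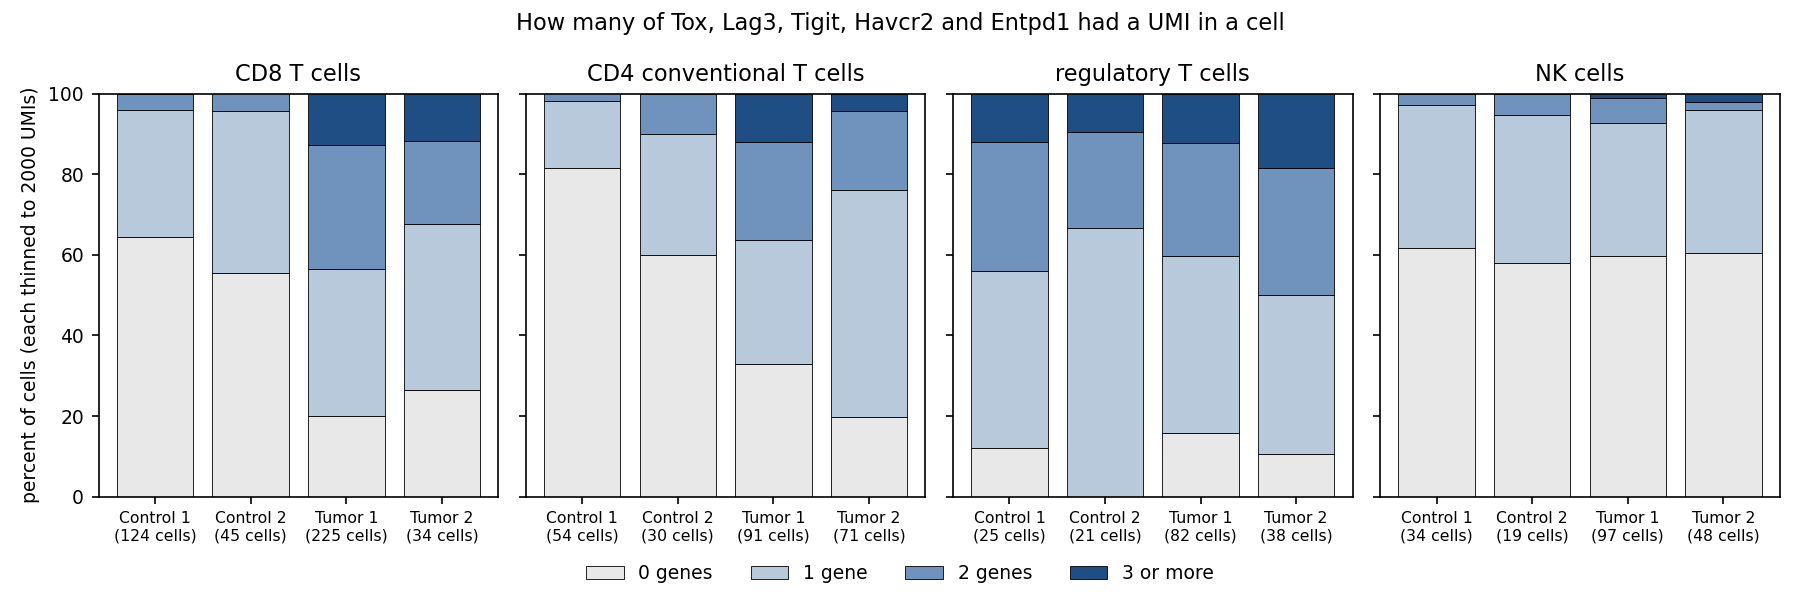
Share of cells, in percent, in which 0, 1, 2 or at least 3 of Tox, Lag3, Tigit, Havcr2 and Entpd1 had a UMI after thinning each cell to 2000 UMIs, by class and library. Tumor CD8 T cells reach 12.9% and 11.8% with at least 3 where control CD8 T cells have 0%, and control regulatory T cells are already at 12% and 9.52%.

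Genes of other cells and states moved with the gains in T cells. The summed level of Il7r, Rora, Itga1 and Cxcr6 was 29.1 and 29.5 UMIs per 10000 in control CD8 T cells and 8.12 and 15.4 in tumor CD8 T cells, and 35.8 and 39.8 against 17.4 and 24.9 in CD4 T cells. The NK marker list of Ncr1, Eomes and Klrb1c summed to 0.139 and 0.189 against 1.24 and 0.820 in CD8 T cells. Most of that sum in every library was Eomes, a gene of cytotoxic and exhausted T cells too, whose values are given below. The T cells of both groups thus differed in these genes too, and their part in the results was not tested. When every cell with a C1q UMI was left out, which kept 110, 43, 120 and 14 CD8 T cells, the same 5 genes passed in CD8 T cells and the same 5 in CD4 T cells. The CD4 gate of the tumors held more Ikzf2, a transcription factor of regulatory T cells, at 8.02 and 4.70 UMIs per 10000 against 0.194 and 0.917. Without cells that had a UMI of Ikzf2 or Il2ra, 40, 13, 29 and 22 CD4 T cells were left, and Tox (log2 fold change 3.45, edgeR adjusted p = 0.004569), Cd200 (4.73, edgeR adjusted p = 0.01317) and Entpd1 (3.20, edgeR adjusted p = 0.01371) still passed, while Lag3 and Havcr2 were too low to be tested. The cycling genes Mki67 and Top2a summed to 8.41 and 4.76 in tumor CD8 T cells against 3.54 and 3.36, and their part was not tested.

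The shares of all genes called, which are the background for the lists that follow, were 5.1% higher and 6.7% lower in CD8 T cells, 5.73% and 4.5% in CD4 T cells, 2.01% and 1.29% in regulatory T cells, 0.0102% and 0% in gamma delta T cells and 2.03% and 2.16% in NK cells. They were 3.56% and 5.01% in dendritic cells, 1.92% and 3.19% in type 1 and 3.25% and 3.48% in type 2 cells. Some genes of the lists passed the filter only through the group in which they were high, so their counts and medians are descriptions. The lists are small, so 1 gene is a large share of most of them. Their median log2 fold changes in CD8 T cells were 0.16 for transcription factors, 0.37 for other receptors, -0.22 for ligands, 0.23 for purine genes and -0.01 for the CD200 receptor family, beside 0.07 over all genes, and in CD4 T cells 0.41, 0.54, -0.72, 0.46 and -0.20, beside 0.03.

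Of 19 further transcription factors of the exhaustion program, 18 were tested in CD8 T cells, with 4 higher and 3 lower, and 17 in CD4 T cells, with 4 higher and 1 lower. Eomes, a T-box factor of cytotoxic and exhausted cells, rose in CD8 T cells from 0.124 and 0.170 UMIs per 10000 to 1.23 and 0.638 (log2 fold change 2.68), and Myb, a factor of stem-like T cells, rose by 2.61. The other calls there, named after their values were seen, were Prdm1 and Ikzf2 (higher) and Tcf7, Nr4a1 and Nr4a3 (lower). In CD4 T cells Ikzf2 (3.60) and Prdm1, which encodes Blimp-1 (2.08), rose, and Eomes was at 0 in both control skins and at 0.231 and 0.391 in the tumors. Named likewise, Bhlhe40 was higher and Bach2 lower. Regulatory T cells had 1 of 14 higher, Bhlhe40 (2.39), gamma delta T cells 0 of 16 in either direction, and NK cells 1 of 16 lower, Ikzf2 (-1.73). Dendritic cells had 1 higher, Tbx21 (2.73), which encodes T-bet, and 1 lower of 15, type 1 cells 0 and 2 of 11, the lower ones being the Nr4a genes Nr4a3 (-1.65) and Nr4a2 (-1.64), and type 2 cells 1 and 2 of 15, with Tbx21 higher (3.67) and Prdm1 lower (-1.98). Batf, a partner of AP-1 factors named after its values were seen, was the other lower gene in all and in type 2 dendritic cells.

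Of 13 other checkpoint and costimulatory receptors, 2 were higher and 2 lower of 12 in CD8 T cells, and 2 were higher and 1 lower of 10 in CD4 T cells. Icos, a costimulatory receptor, fell in both: from 16.8 and 17.6 to 2.19 and 3.03 in CD8 T cells (-2.88) and from 29.8 and 27.9 to 5.45 and 6.31 in CD4 T cells (-2.36). Cd38, an ectoenzyme that consumes NAD, rose by 3.20 in CD8 T cells and in CD4 T cells was at 0 in both control skins and at 0.242 and 0.313 in the tumors. The other calls, named after their values were seen, were Pdcd1, which encodes PD-1, higher in both, and Btla, lower in CD8 T cells. Regulatory T cells had 1 of 8 higher, Btla (2.73), gamma delta T cells 0 of 10 and NK cells 0 of 9. Dendritic cells had 2 higher and 1 lower of 9, among them Tnfrsf18 (1.89) and Cd244 (-1.54), type 1 cells 2 and 1 of 6, with Cd226 at 2.71, and type 2 cells 1 and 2 of 9, with Btla at 2.03 and Icos at -3.22. The Icos UMIs of type 2 cells lay in few cells. In the control skins 3 and 4 cells held 20 and 22 UMIs, and in the tumors 2 and 1 cells held 7 and 1.

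Of 9 ligands of the receptors, 0 rose and 1 fell in CD8 T cells, of 4 tested, and likewise in CD4 T cells. Lgals3, which encodes galectin-3, fell by 2.65 on the log2 scale in CD8 T cells and, as the 1 call of 3 tested, by 2.04 in NK cells. Regulatory T cells (4 tested), gamma delta T cells (6) and type 2 dendritic cells (7) had 0 called, dendritic cells 1 higher and 1 lower of 7, and type 1 cells 1 lower of 5, the Tigit ligand Pvr (-2.19). Of 13 purine genes, 1 of 7 rose in CD8 T cells, Dpp4 (2.97). In CD4 T cells 1 of 5 rose, the ATP receptor P2rx7, at 0 in the control skins and 0.335 and 0.266 in the tumors.

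Dendritic cells had 3 purine genes higher and 1 lower of 9, type 1 cells 2 and 1 of 6, and type 2 cells 2 and 0 of 8. Dpp4 (2.72, 2.67 and 2.52 in all, type 1 and type 2 dendritic cells) and P2rx7 (2.34 and 2.75 in all and type 1) were among them. Regulatory (4 tested), gamma delta (6) and NK cells (2) had 0 called. Of 7 genes of the CD200 receptor family and its signaling, 0 rose in any class. CD8 T cells had 1 of 5 lower, CD4 T cells 2 of 5, dendritic cells 3 of 5 and type 2 cells 1 of 5, and regulatory T cells, gamma delta T cells, NK cells and type 1 cells, each with 4 tested, had 0. Cd200r4, an activating relative of Cd200r1, fell by 2.77 in dendritic cells and by 2.84 in type 2 cells.

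The genes whose levels were most like those of the 9 were taken as the 3 with the highest Pearson r over 38 sums of class and library from 13 classes, among 7202 genes, as a description. The sums share libraries, depth and classes. For Tox they were Hacd3 (r = 0.93), Sytl2 (0.93) and Ciapin1 (0.92), and for Tox2 they were Hlf (0.85), Ccr4 (0.82) and Csgalnact1 (0.82). Tigit was followed by Zfp831 (0.92), Gimap8 (0.91) and Adamts6 (0.91), and Nt5e by Zc3hav1 (0.94), Ikzf3 (0.93) and Camk4 (0.92).

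For Entpd1 the most alike were Pgd (0.85), Il1rn (0.84) and Cd14 (0.84). Havcr2 had lower values, with Abcc4 (0.73), Insig1 (0.73) and Wdr46 (0.67), as did Lag3, with Atp2b2 (0.76), Nrgn (0.75) and Fam3c (0.74). Cd200 was nearest to Il15ra (0.81), 4933406J09Rik (0.80) and AC133498.1 (0.80), and Cd200r1 to Ldha (0.80), Sla (0.80) and Cish (0.78).

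The 9 genes lie on 7 chromosomes of GRCm38, and 3 of them are on chromosome 16: Tigit at chr16:43648867-43664146 on the minus strand, Cd200r1 at chr16:44765736-44794978 on the plus strand and Cd200 at chr16:45382135-45409053 on the minus strand. Entpd1 spans chr19:40612366-40741602 on the plus strand, where Gm16027, Gm8783 and AC166063.1 overlap it on the same strand, so reads there may be split. Tox spans chr4:6686353-6991557 on the minus strand, with Gm11802 on the other strand. Havcr2 spans chr11:46454935-46481255, Lag3 chr6:124904361-124911705, Nt5e chr9:88327197-88372092 and Tox2 chr2:163203125-163324170.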

How the data were processed

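CD45+ cells of 2 control skins and 2 tumors of the 2323 line were profiled with a 3' single-cell kit. What the authors deposited are raw UMI counts for each gene in each cell, made with Cell Ranger on the mm10 genome, version 7.1.0 per the submitters' processing notes and 7.0.1 per the file headers; whether intronic reads were counted is not given in the sources used here. As the study did, cells with at least 100 genes, 1000 UMIs, at most 15% mitochondrial UMIs and a log10 genes to log10 UMIs ratio of at least 0.8 were kept (12848 of 14795). The study removed doublets by software, which was not repeated here; cells with markers of another lineage were left out, and a cap on UMIs was an alternative.

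Classes were gated on marker UMIs, and 8 cells met 2 gates. UMIs were summed per class and library. Classes with at least 10 cells in every library were tested with edgeR 4.0.16 (R 4.3.3; TMM factors, filterByExpr, quasi-likelihood test, Benjamini-Hochberg over all genes of the class, threshold 0.05); DESeq2 1.42.0 was an alternative. The study's test over single cells was not used, since cells are not replicates. Class differences were tested as interactions in 1 fit with the library as a term. Tests were checked on simulated counts, where the test of gamma delta T cells recovered almost none of the changes put in. Each SE is the absolute log2 fold change divided by the square root of the test's F statistic, so it rests on the same test. Intervals are exact Poisson (95%) and, like the floor of 3 UMIs, cover counting error only. For shares of cells, each cell was thinned to 2000 UMIs, which left out 5 of 2119 control and 8 of 1045 tumor cells. Likeness used log2(UMIs per 10000 + 0.1) over sums of at least 20 cells, among genes that reach 0.5 UMIs per 10000.

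The 9 genes are described in the classes where their counts allow; of the other lists, the genes past the threshold without overlap between groups, at most the 6 with the largest change per class, and those marked in the text. The genes and lists were chosen with earlier results of these data known. Leaving cells with lymphoid genes out of the dendritic gates was decided after seeing the data. The same step applied to the gates of Langerhans cells, macrophages, neutrophils and mast cells. Alternatives were other size factors, no filter on low counts, a replicate block, all deposited cells, stricter gates, cells without C1q UMIs and each library left out. Same-numbered libraries were not paired: the correlation of their deviations ranged from -0.101 to 0.0559 over the classes.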

Additional observations from a re-analysis of the deposited data

Results flagged for a closer look

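In 4 cases the effect of the tumor on a gene differed between a class and CD8 T cells by the interaction test (edgeR quasi-likelihood, adjusted over all genes). For Entpd1 the difference was -4.16 in regulatory T cells (SE 0.76, adjusted p = 0.00773), -4.64 in type 1 dendritic cells (SE 0.69, adjusted p = 0.0004154) and -5.80 in type 2 dendritic cells (SE 0.67, adjusted p = 1.446e-05), on the log2 scale. Entpd1 rose in both tumors in CD8 T cells, overlapped between groups in regulatory T cells and was lower in both tumors in either type of dendritic cell. Within type 1 dendritic cells alone that difference did not pass (log2 fold change -0.52, edgeR adjusted p = 0.3069). With CD4 T cells as the reference, Entpd1 still differed in type 1 (-4.01, adjusted p = 0.002681) and type 2 dendritic cells (-5.17, adjusted p = 0.000168). In regulatory T cells none of the 9 genes passed with that reference, with Entpd1 at -3.52 (adjusted p = 0.05192) and Tox at -3.13 (adjusted p = 0.05914), where 0.351% of all genes did. For Lag3 in gamma delta T cells the fitted difference was -11.43 (adjusted p = 0.008562). Its size depends on the prior count of the fit, since both tumors had 0 Lag3 UMIs in their 10 and 17 gamma delta T cells.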

How the results depend on the processing

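Depth, cell number and the number of libraries limit these results: gamma delta T cells rest on 10 and 17 tumor cells, Langerhans cells on 0 and 4, and each group on 2 libraries. Of 316 values recomputed under alternatives other than leaving out a library, 306 kept their direction and their side of the threshold, 5 were no longer past it, 4 were newly past it and 1 turned. Of 164 with 1 library left out, 136 kept both, 11 were no longer past the threshold, 11 were newly past it and 6 turned. Genes that fell below the filter on low counts in an alternative are in neither count, so a call lost in that way is not counted as lost. Examples are Lag3 and Cd200 in CD8 T cells without tumor 1, and Lag3 and Havcr2 in CD4 T cells without Ikzf2 or Il2ra cells. The causes of the changes were not tested, apart from the smaller number of cells or libraries that some alternatives have by construction.

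With 1 library left out, the genes called ranged from 2 to 6 in CD8 T cells (2 without control 1 and without tumor 1), from 5 to 6 in CD4 T cells, from 0 to 1 in regulatory T cells (1 without tumor 2), from 0 to 2 in gamma delta T cells (2 without tumor 2), from 0 to 1 in NK cells (1 without control 1 and without tumor 1) and from 1 to 3 in dendritic cells (1 without control 1). Log2 fold changes that turned ranged from -0.41 to 0.37 for Entpd1 in regulatory T cells, from -3.12 to 0.16 for Tox and from -0.52 to 0.073 for Nt5e in gamma delta T cells, from -1.31 to 0.10 for Nt5e in NK cells and from -0.23 to 0.42 for Havcr2 in type 2 dendritic cells, where it was also -0.093 without cells that had a C1q UMI, an alternative chosen after seeing the data.

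In CD4 T cells 3 genes were called without Ikzf2 or Il2ra cells, where 213 of all 3514 genes tested were called. In gamma delta T cells 1 was called by DESeq2 and 1 with no filter on low counts. Of all genes tested there, 599 of 9794 and 388 of 17585 were called. In dendritic cells 0 were called with the strict gate (log2 fold change -2.03 for Havcr2, -1.43 for Entpd1 and 1.29 for Cd200) and 5 with lymphoid gene cells kept, of which Entpd1 and Cd200 were called without them too, Tox, Nt5e and Tox2 were not, and Havcr2 was lost. Of all genes tested, 74 of 4951 were called with the strict gate and 1196 of 9476 with lymphoid gene cells kept. With CD4 T cells as the reference of the interaction, 0 genes differed in regulatory T cells, 4 in gamma delta T cells and 3 in type 1 dendritic cells. Of all genes 0.351%, 2.3% and 2.33% differed there. In type 2 dendritic cells Entpd1 differed, where 2.99% of all genes did. Without thinning, 54.7% of tumor CD8 T cells and 34.1% of tumor CD4 T cells, as means over libraries, had at least 3 of the 5 genes, against 12.3% and 8.16% with it.

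With the replicate block, 5 genes were called in CD8 T cells, 5 in CD4 T cells, 0 in regulatory, gamma delta and NK cells and 3 in dendritic cells, and it changed no call. Of all genes tested, the block called 874 of 7802, 740 of 6562, 74 of 4271, 7 of 9794, 137 of 5465 and 905 of 9062, with the classes in that order. In regulatory T cells, the class with the correlation of -0.101, a block with crossed numbers, chosen after seeing the data, gave 0 calls. The strict gate could not be fitted for classes other than dendritic cells as a whole, the UMI cap for gamma delta T cells, and the exclusion of C1q cells for gamma delta T cells and type 1 dendritic cells.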

Other observations

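Innate lymphoid and granulocytic cells outside the 7 classes carried some of the highest levels of these genes, given here as values only. The 112 and 94 group 2 innate lymphoid cells of the control skins had 20.3 and 26.1 UMIs of Tox per 10000, and the tumors held 7 and 3 such cells. Neutrophils had 29.5 and 22.9 UMIs of Entpd1 per 10000 in the control skins and 25.1 and 22.6 in the tumors, with overlap. Macrophages had 1.49 and 0.779 UMIs of Havcr2 per 10000 against 1.24 and 1.26, and 0.657 and 0.458 UMIs of Cd200r1 against 0.552 and 0.587, so neither gene separated the groups there.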
